A study of Mus musculus with 4 samples.

Results

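T cell spots were the Visium spots of mouse liver in which the transcripts of 6 genes, Cd3d, Cd3e, Cd3g, Trac, Trbc2 and Nkg7, summed to 2 or more unique molecular identifiers (UMIs, which count captured transcripts). They were set against other spots, in which that sum was 0. A minimum of 5000 UMIs per spot kept 8130 of 8252 spots: 313 were T cell spots, 6755 were other spots, and 1062 with a sum of 1 were in neither class. The 6 genes chose the spots, so their levels in the 2 classes are a description, and every test below leaves them out or holds 1 of them out of the choice.

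The study profiled fresh-frozen liver of mice on the diet labelled WD with 10x Visium, which captures polyadenylated RNA on an array of barcoded spots, each wide enough to hold several cells. There were 2 sections of the MASH model (in general use for metabolic dysfunction-associated steatohepatitis, 16 weeks of diet) and 2 of the MAFL model (metabolic-associated fatty liver, 8 weeks of diet), so the model and the time on diet changed together. All 4 sections share the diet, and no section from mice on another diet was used here. Nothing in the labels ties the sections to separate animals. The section is a block in the gene tests, so differences in level between sections are taken out. The p-values measure how the difference between the classes varies among these sections, a spread that may be technical.

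T cells recognise peptides on MHC molecules through the T cell receptor. Its alpha and beta chains, whose constant parts are encoded by Trac and by Trbc1 and Trbc2, signal through the CD3 chains encoded by Cd3d, Cd3e and Cd3g. Nkg7 encodes a granule membrane protein of cytotoxic T cells and natural killer (NK) cells, so its transcripts mark both. In the mouse genome (GRCm38.p6, RefSeq) the CD3 genes sit side by side, Cd3g at chr9:44969572-44980431, Cd3d at chr9:44981769-44987052 and Cd3e at chr9:44998735-45009663. Trac lies at chr14:54220521-54224198, Trbc2 at chr6:41546730-41548181 and Nkg7 at chr7:43437138-43438246. In the liver T cells lie in the portal tracts, where blood enters the lobule, and in the sinusoids between the hepatocytes, and CD8 T cells gather in livers with steatohepatitis.

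MASH 1 held 129 T cell spots of 2424 (5.32%), MASH 2 held 142 of 1846 (7.69%), MAFL 1 held 25 of 2001 (1.25%) and MAFL 2 held 17 of 1859 (0.914%). The T cell spots were deeper than the other spots in 3 of 4 sections. T cell spots had a median of 30188, 29553, 14883 and 22461 UMIs in MASH 1, MASH 2, MAFL 1 and MAFL 2, against 24751, 18841, 15410 and 19635 in other spots. Summed per section, the T cell spots held 4007125, 4611572, 412620 and 394938 UMIs, against 49617424, 30341853, 28671264 and 33818995 in the other spots. Mitochondrial transcripts took 3.48, 4.23, 3.99 and 4.30% of the UMIs in T cell spots, against 3.89, 5.03, 4.02 and 5.0% in other spots. Values in this order, MASH 1, MASH 2, MAFL 1 and MAFL 2, are given throughout. The 2 MAFL libraries of T cell spots were far shallower than those of MASH, and 3 UMIs there correspond to 7.27 and 7.60 CPM (UMIs scaled to a common library size), against 0.749 and 0.651 CPM in MASH.

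Most members sat at the threshold. A sum of exactly 2 UMIs was found in 94 of 129, 99 of 142, 22 of 25 and 12 of 17 T cell spots, and the highest sums were 9, 6, 4 and 4. Trbc2, the constant part of the receptor's beta chain, had a UMI in 52.7, 42.3, 24.0 and 41.2% of the T cell spots. Nkg7 had one in 41.1, 43.7, 36 and 52.9% of them, and 5, 7, 0 and 1 spots held Nkg7 and none of the other 5. With Nkg7 left out of the rule, 91, 101, 17 and 9 spots met it. At least 3 different genes of the 6 were present in 19, 27, 1 and 1 spots. Just outside the threshold, the spots with a sum of 1 numbered 352, 352, 182 and 176.

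Over all kept spots, without any class, the 6 genes together reached 10.4 and 15.9 CPM in the MASH sections, against 7.35 and 5.73 CPM in the MAFL sections. T cell spots held 46.8 and 50.2% of these UMIs in MASH, against 22.9 and 19.3% in MAFL, so most of the UMIs in MAFL lay singly in spots that the rule did not take.

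To compare shares at 1 depth, every kept spot was thinned at random to 5000 UMIs and the rule was applied again. Then 5 spots in MASH 1 (0.206%, exact 95% binomial interval 0.0670 to 0.481%) and 7 in MASH 2 (0.379%, 0.153 to 0.780%) met it, against 4 in MAFL 1 (0.200%, 0.0545 to 0.511%) and 1 in MAFL 2 (0.0538%, 0.00136 to 0.299%). Intervals in this text cover counting error only. The shares averaged 0.293% ± 0.122 in MASH and 0.127% ± 0.103 in MAFL (SD, n = 2 sections each), with MASH 1 and MAFL 1 nearly the same. The size of the gap rests on the random draw. With another seed 7 spots in MASH 1 (0.289%) and 12 in MASH 2 (0.650%, 0.336 to 1.13%) met the rule, against the same 4 and 1 in MAFL. Both MASH sections stood above both MAFL sections in either draw, MASH 1 only just above MAFL 1 in the first. Without Nkg7 in the rule MASH 1 (0.0825%) stood below MAFL 1 (0.200%). Without thinning the shares averaged 6.51% ± 1.68 in MASH and 1.08% ± 0.237 in MAFL. Thinned to 10000 UMIs, with shallower spots left out, 25 of 2336 spots in MASH 1 (1.07%) and 31 of 1711 in MASH 2 (1.81%) met the rule, against 7 of 1790 in MAFL 1 (0.391%) and 6 of 1796 in MAFL 2 (0.334%). The difference between the groups was 5.43 percentage points at full depth, 1.08 at 10000 UMIs and 0.166 at 5000 UMIs (0.343 with the other seed). With 2 sections against 2 an exact permutation test cannot go below p = 0.333, so no test was made.

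**Figure D1:**
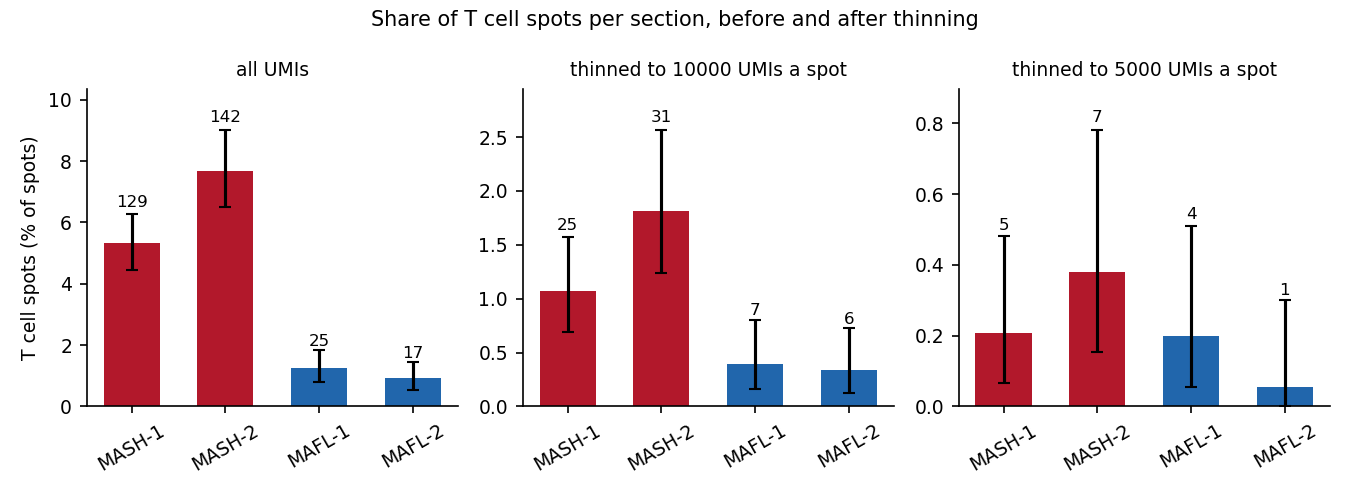
Share of kept spots (%) that met the 6-gene rule in each section, with all UMIs, after thinning to 10000 UMIs and after thinning to 5000 UMIs; whiskers are exact 95% binomial intervals and the numbers above the bars count T cell spots. Both MASH bars stand above both MAFL bars in the first and the second panel, while at 5000 UMIs, in the draw shown, the intervals of all 4 sections overlap.

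Held out of the choice in turn, each of the 6 genes was still higher in the spots chosen by the other 5, with the 4 sections fitted together. The MAFL side of this check rested on few UMIs. The CPM of these held-out genes are on library totals. Cd3d, a CD3 chain, had 5.34, 7.20, 10.6 and 3.29 CPM in the spots chosen without it (18, 27, 3 and 1 UMIs), against 1.34, 2.38, 1.3 and 1.01 CPM in other spots. It was 3.50-fold higher (log2 difference 1.81 ± 0.30 SE, edgeR adjusted p = 2.66e-07). The CD3 chain Cd3g was 3.61-fold higher (1.85 ± 0.33, edgeR adjusted p = 3.25e-06), and Cd3e was 2.79-fold higher (1.48 ± 0.40, edgeR adjusted p = 0.0128). Cd3e rested on 10 and 14 UMIs in MASH, with 0 in both MAFL sections. Trac rested on 11, 13, 2 and 0 UMIs, so MAFL 2 did not share its direction. The receptor constant parts Trac and Trbc2 were 3.10-fold (edgeR adjusted p = 0.00180) and 3.17-fold higher (edgeR adjusted p = 1.45e-05), and Nkg7 was 3.32-fold higher (edgeR adjusted p = 1.03e-06). Of all genes tested in these fits, 1.36, 1.51, 1.5, 1.3, 1.03 and 1.23% were higher in the chosen spots with Cd3d, Cd3e, Cd3g, Trac, Trbc2 and Nkg7 held out. Leaving out MASH 1 ended the calls of Cd3e and Trac, and leaving out MASH 2 those of Cd3e, Cd3g and Trac. The CPM of a spot cannot tell more T cells from more RNA per T cell.

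Across all genes, 314 of 12224 tested differed between the classes at an adjusted p under 0.05 (2.57%), 170 higher (1.39%) and 144 lower (1.18%) in T cell spots. The median log2 difference of all genes tested was -0.02. The test was edgeR's quasi-likelihood test with Benjamini-Hochberg adjustment on UMIs summed per class and section, with the section as a block, and CPM from here on are scaled by TMM factors (trimmed mean of M values). The log2 ratio was above 0 in 4 of 4 sections for 5.98% of tested genes and below 0 in 4 of 4 for 13.2%. Among genes that passed with at least 5 CPM and 1 direction in 4 of 4 sections, the 10 highest were S100a4, Ccl5, Ly6c2, Ifit3b, S100a6, Cmpk2, Myo1f, Coro1a, Myof and Il1rn. The 10 lowest were Rhbg, Cyp2a5, Slc1a2, Cyp2c38, Nxpe2, Oat, Cyp2c29, Glul, Cyp1a2 and Fitm1, among them 7 members of the pericentral list described below. Scaled by library totals alone, 255 genes were higher and 118 lower. DESeq2 called 102 genes, 23 higher and 79 lower, and none of the T cell or cytotoxic lists that follow, of which it placed 7 and 8 genes at an unadjusted p under 0.05. Fitted without the section as a block, only Ccl5 passed.

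Of 26 T cell genes outside the rule 16 were tested, and 9 of them were higher and none lower, with a median log2 difference of 1.61. Among all genes tested 1.39% were higher and 1.18% lower, the background for every list below. The expression filter took a gene that reached a minimum level in as many libraries as 1 class has. Rare genes such as Cd8a could therefore be tested through the T cell spots where they were high. For lists with such genes the counts are a description, and so are the fold changes and p-values of those genes. The CD8 alpha chain Cd8a, the co-receptor of cytotoxic T cells, had 2.77, 2.47, 2.35 and 2.50 CPM in T cell spots, against 0.412, 0.570, 0.109 and 0.222 CPM in other spots. It was 5.75-fold higher (log2 difference 2.52 ± 0.43 SE, edgeR adjusted p = 1.07e-06), on 11, 12, 1 and 1 UMIs in T cell spots. Cd8b1, the partner chain, was 3.84-fold higher (log2 difference 1.94 ± 0.45 SE, edgeR adjusted p = 0.00139); it was chosen for mention after its values were seen. Trbc1, the other beta chain constant part, had 5.53, 4.32, 4.71 and 5.0 CPM in T cell spots, against 1.44, 1.08, 1.06 and 1.24 CPM in other spots. It was 3.93-fold higher (log2 difference 1.98 ± 0.31 SE, edgeR adjusted p = 6.66e-08), though its near-identity to Trbc2, a gene of the rule, means that the counting could split reads between them. Ms4a4b, a membrane protein of T cells, had 5.53, 4.73, 2.35 and 10.0 CPM in T cell spots, against 1.32, 1.27, 0.729 and 0.887 CPM in other spots, and was 4.26-fold higher (log2 difference 2.09 ± 0.31 SE, edgeR adjusted p = 3.95e-09). All 3 with values given were higher in 4 of 4 sections, but the MAFL values rest on very few UMIs: 1 UMI there is 2.35 or 2.50 CPM, Trbc1 had 2 and 2, and Ms4a4b had 1 and 4. These counts are too low to set the MAFL levels against the other spots section by section.

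The kinase Lck, which starts receptor signalling, was 3.90-fold higher (log2 difference 1.97 ± 0.40 SE, edgeR adjusted p = 0.000130) and the surface glycoprotein Thy1 was 3.41-fold higher (log2 difference 1.77 ± 0.31 SE, edgeR adjusted p = 1.44e-06). The lymphotoxin beta gene Ltb was 3.03-fold higher (log2 difference 1.6 ± 0.32 SE, edgeR adjusted p = 6.79e-05). The adaptor Lat and the lymphocyte GTPase Gimap3 were 3.34-fold (edgeR adjusted p = 1.33e-05) and 3.06-fold higher (edgeR adjusted p = 2.62e-05), both with 0 UMIs in the T cell spots of both MAFL sections. The kinase Zap70 (0.24) and the interleukin 7 receptor Il7r (0.93) did not pass. Cd4, the co-receptor of helper T cells, had 5, 10, 0 and 0 UMIs in T cell spots, too few to test, and Foxp3, the factor of regulatory T cells, had 0 in all 4. Without MASH 1, 6 of 15 tested T cell genes passed, and without MASH 2, 5 of 14.

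Of 22 cytotoxic and NK genes 10 were tested, and 7 of them were higher and none lower, against 1.39% higher among all genes tested. The median log2 difference was 1.5. Here too rare genes could enter the test through the T cell spots, so the counts and the p-values of such genes are a description. Ccl5, a chemokine of activated T and NK cells and a marker of the label, had 44.3, 44.8, 35.3 and 22.5 CPM in T cell spots, against 16.4, 15.9, 5.54 and 5.67 CPM in other spots. It was 2.90-fold higher (log2 difference 1.53 ± 0.10 SE, edgeR adjusted p = 1.54e-44), and the lowest T cell value lay above the highest value of the other spots, as for 0.982% of all genes tested. Gzma, a granule protease, had 3.52, 5.55, 2.35 and 7.5 CPM in T cell spots, against 0.804, 1.3, 0.583 and 1.65 CPM in other spots, and was 4.31-fold higher (log2 difference 2.11 ± 0.33 SE, edgeR adjusted p = 2.56e-08) on 14, 27, 1 and 3 UMIs. The protease Gzmb was 4.25-fold higher (log2 difference 2.09 ± 0.52 SE, edgeR adjusted p = 0.00360), and the cathepsin Ctsw 3.36-fold (edgeR adjusted p = 0.00130). The chemokine Ccl4 (1.62), the lectin receptor Klrd1 (1.47) and the interleukin 2 receptor chain Il2rb (1.24) also passed. Ccl5 kept its call in each edgeR fit that left out a section (log2 difference 1.48 to 1.69), whereas the list had 2 of 10 higher without MASH 1 and 3 of 8 without MASH 2.

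Transcripts that single out NK cells were scarce, as were those of Cd8a and Cd4 given above. Ncr1, which defines NK cells, had 3, 2, 0 and 0 UMIs in T cell spots, and Klrb1c had 9, 4, 0 and 0. Counts this low cannot tell NK cells from T cells in these spots. The summed cytotoxic and NK list reached 72.4, 88.4, 49.4 and 52.5 CPM in T cell spots, against 26.3, 31.6, 13.1 and 13.3 CPM in other spots. The summed T cell list reached 111, 92.5, 91.8 and 85.0 CPM, against 63.5, 56.0, 52.0 and 59.0 CPM. Both sums were higher in T cell spots in every section, though the MAFL sums rested on few UMIs. In the T cell spots of MAFL 1 and MAFL 2 the T cell list had 39 and 34 UMIs. The cytotoxic and NK list had 21 and 21 there. Ccl5 alone made up a large part of the cytotoxic sum, with 15 and 9 of those UMIs.

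Of 12 tested genes of T cell state (exhaustion, memory and activation) only Ccr7, the lymph node homing receptor, passed, with a list median of 0.24. Ccr7 was 2.66-fold higher (log2 difference 1.41 ± 0.39 SE, edgeR adjusted p = 0.0174) on 5, 17, 3 and 0 UMIs, and lost its call without the spots rich in haemoglobin transcripts, within MASH alone and against depth-matched other spots.

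**Figure D2:**
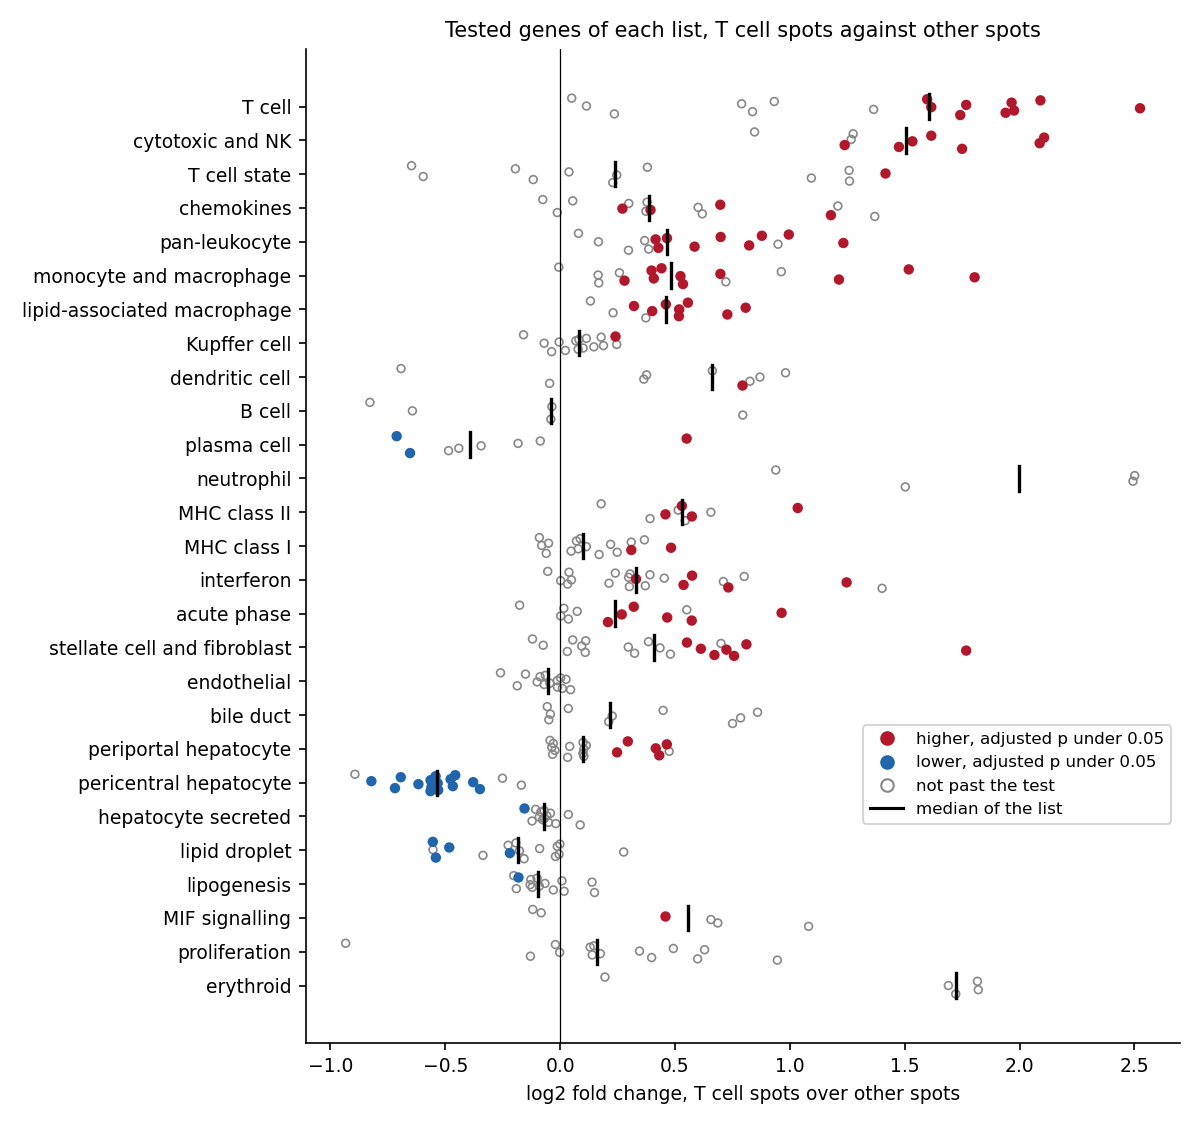
Log2 difference of T cell spots over other spots for the tested genes of each of the 27 gene lists, 1 point a gene, coloured by whether it was higher, lower or not past the adjusted p of 0.05. The neutrophil list (2.0) and the erythroid list (1.72), in which no gene passed, have the highest medians. Among lists with genes that passed, the T cell list (1.61) and the cytotoxic and NK list (1.5) stand highest. Rare genes of the T cell and cytotoxic lists could enter the test through the T cell spots. The pericentral genes lie left of 0.

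Of 14 tested chemokines, the secreted signals that guide leukocytes, 4 were higher and none lower, with a median of 0.39. Ccl19, the ligand of Ccr7 made by stromal cells of lymphoid tissue, had 14.8, 25.7, 65.9 and 2.50 CPM in T cell spots, against 7.67, 12.9, 9.88 and 3.71 CPM in other spots. It was 2.26-fold higher (log2 difference 1.18 ± 0.14 SE, edgeR adjusted p = 1.12e-12), in 3 of 4 sections, and MAFL 1 stood highest while MAFL 2 ran the other way. More than 1 feature of the annotation bears the symbol Ccl19. Cxcl9, the interferon-gamma induced ligand of Cxcr3, had 20.9, 26.3, 14.1 and 30 CPM in T cell spots, against 15.0, 15.8, 7.11 and 8.05 CPM in other spots, and was 1.62-fold higher (log2 difference 0.70 ± 0.13 SE, edgeR adjusted p = 4.99e-06), in 4 of 4 sections. Cxcl10, which shares that receptor, had 25.9, 9.66, 4.71 and 12.5 CPM in T cell spots, against 4.8, 9.18, 2.66 and 3.04 CPM in other spots, and did not pass (log2 difference 1.37, edgeR adjusted p = 0.414). The macrophage chemokines Ccl6 (0.39, edgeR adjusted p = 0.000328) and Ccl9 (0.27, edgeR adjusted p = 0.0182) were the other 2 that passed.

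Of 15 tested pan-leukocyte genes, which T cells and other leukocytes share, 9 were higher and none lower, with a median of 0.47. Without MASH 1, 4 of 15 passed, and without MASH 2, 3 of 15. The surface protein Cd52 had 58.3, 115, 49.4 and 50 CPM in T cell spots, against 36.3, 61.4, 17.2 and 15.9 CPM in other spots, and was 1.84-fold higher (log2 difference 0.88 ± 0.07 SE, edgeR adjusted p = 2.27e-28). The actin regulator Coro1a had 19.1, 29.8, 25.9 and 20.0 CPM in T cell spots, against 9.91, 15.8, 7.43 and 7.64 CPM in other spots, and was 1.99-fold higher (log2 difference 1.0 ± 0.13 SE, edgeR adjusted p = 6.20e-12). In every section both were higher in T cell spots. Ptprc, the leukocyte common antigen CD45, differed by 0.37 and did not pass.

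Of 16 tested monocyte and macrophage genes 10 were higher and none lower, with a median of 0.48. S100a4, a calcium-binding protein of motile leukocytes and fibroblasts, had 7.04, 25.9, 16.5 and 20.0 CPM in T cell spots, against 2.56, 8.74, 1.93 and 1.36 CPM in other spots. It was 3.49-fold higher (log2 difference 1.8 ± 0.21 SE, edgeR adjusted p = 3.41e-14). The direction was the same in 4 of 4 sections, as for 5.98% of all genes tested. The MASH 1 value in T cell spots lay below the MASH 2 value in other spots. Ly6c2, a surface antigen of inflammatory monocytes that memory CD8 T cells also carry, had 6.04, 11.9, 9.41 and 32.5 CPM in T cell spots, against 2.18, 6.21, 1.97 and 2.41 CPM in other spots, and was 2.86-fold higher (log2 difference 1.52 ± 0.24 SE, edgeR adjusted p = 5.79e-08). The chemokine receptor Ccr2 was 2.32-fold higher (log2 difference 1.21 ± 0.26 SE, edgeR adjusted p = 0.000291), and lysozyme Lyz2 1.44-fold (edgeR adjusted p = 1.62e-10). Lyz2 lost its call within MASH alone (edgeR adjusted p = 0.78) and with either matching of the other spots. The summed list reached 715, 981, 332 and 533 CPM in T cell spots, against 616, 667, 227 and 281 CPM in other spots, and its part in the other results was not tested. Without MASH 2, 4 of the list's genes passed.

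Of 11 tested genes of lipid-associated macrophages, the macrophages that gather at fat-laden hepatocytes, 8 were higher and none lower, with a median of 0.46. Spp1 (osteopontin), which bile duct cells also make, had 129, 367, 137 and 108 CPM in T cell spots, against 76.9, 233, 76.2 and 58.5 CPM in other spots, and was 1.66-fold higher (log2 difference 0.73 ± 0.07 SE, edgeR adjusted p = 1.94e-25). The elastase Mmp12 was 1.75-fold higher (log2 difference 0.81 ± 0.10 SE, edgeR adjusted p = 3.41e-14). Gpnmb was 1.47-fold higher (log2 difference 0.56 ± 0.11 SE, edgeR adjusted p = 7.70e-05), with 0 UMIs in the T cell spots of both MAFL sections. Trem2, the lipid receptor of these cells, had 11.3, 25.5, 0 and 5.0 CPM in T cell spots, against 10.2, 17.9, 1.93 and 2.63 CPM in other spots, and did not pass (edgeR adjusted p = 0.231). Without MASH 2 only 1 of 10 passed, so the count of this list rested on that section. Of 15 tested Kupffer cell genes only C1qb passed (0.24), with a median of 0.08, and it had no call without MASH 1 or without MASH 2.

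**Figure D3:**
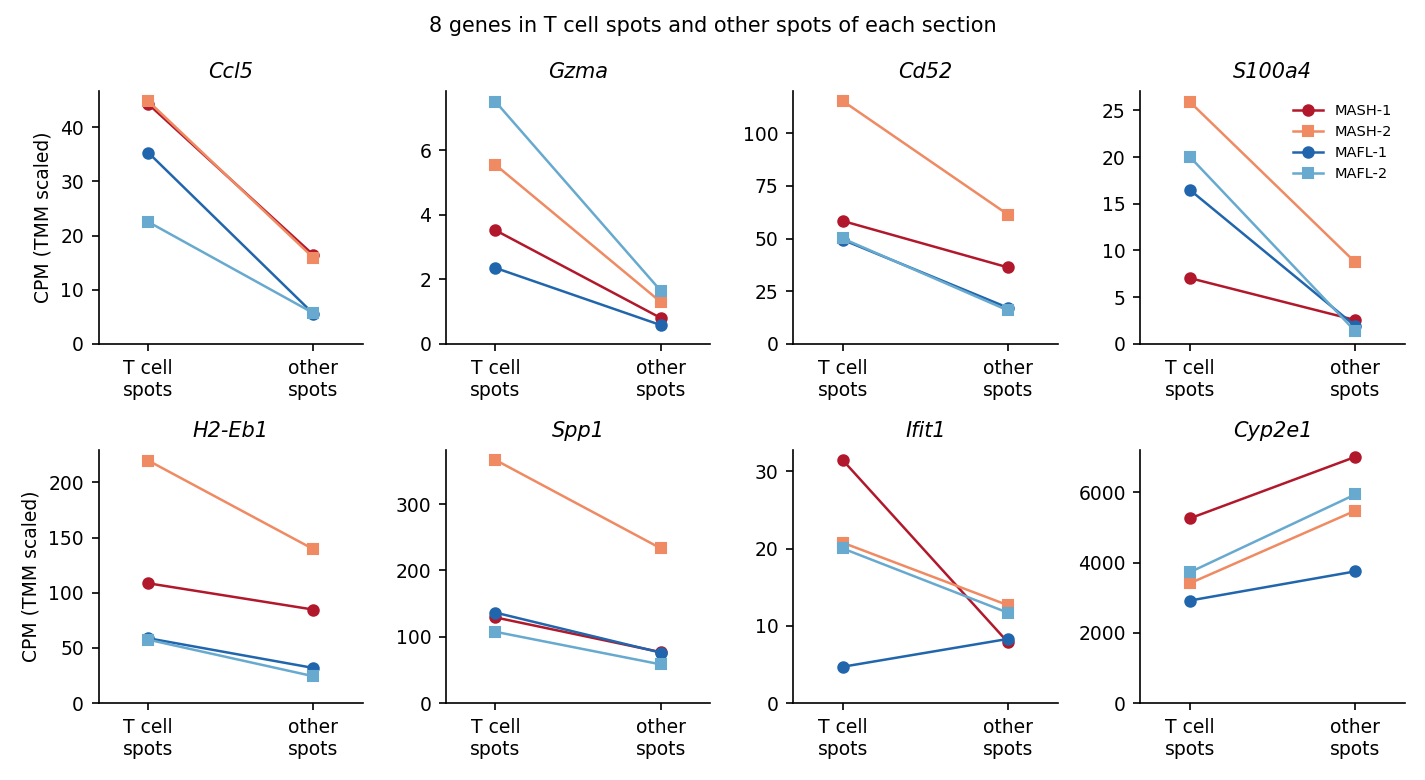
CPM (TMM scaled) of Ccl5, Gzma, Cd52, S100a4, H2-Eb1, Spp1, Ifit1 and Cyp2e1 in each section, T cell spots on the left and other spots on the right, with a line joining the classes of 1 section. Of these 8 genes, Cyp2e1 slopes the other way in all 4 sections and Ifit1 in MAFL 1.

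MHC class II genes, which present antigen to CD4 T cells, were higher in the same spots. Of 9 tested 4 were higher and none lower, with a median of 0.53. The beta chain gene H2-Eb1 had 109, 219.9, 58.8 and 57.5 CPM in T cell spots, against 84.8, 139.5, 31.9 and 24.4 CPM in other spots, and was 1.49-fold higher (log2 difference 0.57 ± 0.07 SE, edgeR adjusted p = 4.46e-14). H2-Aa had 115, 249.9, 87.1 and 80.0 CPM in T cell spots, against 96.2, 169, 37.2 and 33.7 CPM in other spots, and was 1.44-fold higher (log2 difference 0.53 ± 0.07 SE, edgeR adjusted p = 1.41e-11). H2-Ab1 was 1.37-fold higher (log2 difference 0.46 ± 0.07 SE, edgeR adjusted p = 1.20e-09), and Ciita, the activator that switches on these genes, was 2.05-fold higher (log2 difference 1.03 ± 0.31 SE, edgeR adjusted p = 0.0398). All 4 were higher in 4 of 4 sections, though Ciita kept its call in only 5 of the 20 alternative fits that tested it. Cd74, the chain that guides class II molecules and also binds the cytokine Mif, had 279.9, 561, 165 and 210.1 CPM in T cell spots, against 238, 365, 79.3 and 83.8 CPM in other spots, and did not pass (log2 difference 0.66 ± 0.15 SE, edgeR adjusted p = 0.0681).

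The promoters of 2 of these genes are shown because class II promoters are known for a Y box, the letters CCAAT on either strand (ATTGG on the other). The motif was chosen after the values were seen. The windows are the 250 bases before the start of the gene in RefSeq, build GRCm38.p6, printed 5′ to 3′ in the direction of transcription with the Y box in capitals. H2-Aa lies at chr17:34287824-34288073 on the minus strand, with its match 48 bases before the start. H2-Eb1 lies at chr17:34305617-34305866 on the plus strand, with matches 59 and 35 bases before it. The letters occur in 6 of 7 promoters of the class II list and in 33.8% of all 32851 promoters, and a match is a description of letters only.
H2-Aa: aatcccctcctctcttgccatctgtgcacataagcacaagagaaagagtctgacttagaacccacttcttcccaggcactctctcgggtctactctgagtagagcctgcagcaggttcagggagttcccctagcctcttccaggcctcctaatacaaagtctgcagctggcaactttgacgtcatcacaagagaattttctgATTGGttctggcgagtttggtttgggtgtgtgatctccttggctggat
H2-Eb1: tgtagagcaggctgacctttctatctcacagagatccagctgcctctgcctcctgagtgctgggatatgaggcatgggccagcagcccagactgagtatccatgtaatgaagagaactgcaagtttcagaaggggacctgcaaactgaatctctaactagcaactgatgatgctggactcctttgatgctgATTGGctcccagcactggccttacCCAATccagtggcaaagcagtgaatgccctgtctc

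Of 16 tested MHC class I genes, which present antigen to CD8 T cells, H2-Q6 (0.48) and the immunoproteasome subunit Psmb8 (0.31) were higher and none lower, with a median of 0.10; without MASH 1 neither passed. Of 9 tested dendritic cell genes the integrin Itgax was higher (0.79, edgeR adjusted p = 0.0486), with a median of 0.66. It had no call without the spots rich in haemoglobin, under depth matching, without MASH 1, without MASH 2 or in DESeq2. Of 6 tested genes of Mif signalling only the co-receptor Cd44 passed (0.46, edgeR adjusted p = 0.0271), with a median of 0.56, and it lost its call within MASH alone and under either matching. Mif itself had 261, 251, 202 and 230.1 CPM in T cell spots, against 269, 259.9, 230.5 and 249.7 CPM in other spots, and did not pass (edgeR adjusted p = 0.724). The chemokine receptor Cxcr4, which also binds Mif, differed by 0.69 and did not pass.

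Of 21 tested interferon-induced genes 5 were higher and none lower, among them Ifit1, Ifit3, Isg15 and Gbp2, with a median of 0.33. Gbp2 was named after its values were seen. Ifit1, which binds foreign RNA, had 31.4, 20.8, 4.71 and 20.0 CPM in T cell spots, against 7.87, 12.7, 8.31 and 11.7 CPM in other spots. It was 2.37-fold higher (log2 difference 1.25 ± 0.20 SE, edgeR adjusted p = 0.000540), in 3 of 4 sections, with MAFL 1 lower. Ifit3, its partner, had 26.7, 14.8, 2.35 and 12.5 CPM in T cell spots, against 11.6, 14.4, 9.11 and 11.6 CPM in other spots, and was 1.49-fold higher (log2 difference 0.57 ± 0.14 SE, edgeR adjusted p = 0.00314). Without MASH 1 the difference of Ifit3 was -0.05 and 1 gene of the list passed. Outside the list, Ifit3b had 11.6, 7.19, 4.71 and 5.0 CPM in T cell spots, against 3.17, 4.59, 1.97 and 3.58 CPM in other spots (2.34-fold higher, edgeR adjusted p = 5.01e-05), and the nucleotide kinase Cmpk2 had 15.3, 7.81, 7.06 and 10.0 CPM in T cell spots, against 4.86, 5.83, 5.47 and 5.23 CPM in other spots (2.05-fold higher, edgeR adjusted p = 0.000107). Ifit3 and Ifit3b are close copies, so the counting could split reads between them. Against other spots matched in lobule position, Ifit1 kept its difference of 1.26 but not its call (edgeR adjusted p = 0.083).

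Promoters of the Ifit genes carry the interferon-stimulated response element (ISRE), and 3 are printed because Ifit1, Ifit3 and Ifit3b all passed, although Ifit1 and Ifit3 were lower in the T cell spots of MAFL 1 and Ifit3b was higher there. The letters searched were GAAA, any 2 bases and GAAA again, on either strand, chosen after the values were seen, and the capitals mark each match. Ifit1 lies at chr19:34640639-34640888, Ifit3 at chr19:34583279-34583528 and Ifit3b at chr19:34607707-34607956, all on the plus strand of GRCm38.p6 in RefSeq. The matches begin 104 and 85 bases before the start of Ifit1, 156 and 122 before that of Ifit3, and 188 and 154 before that of Ifit3b. The letters occur in 12 of 19 promoters of the interferon list and in 2.98% of all 32851 promoters.
Ifit1: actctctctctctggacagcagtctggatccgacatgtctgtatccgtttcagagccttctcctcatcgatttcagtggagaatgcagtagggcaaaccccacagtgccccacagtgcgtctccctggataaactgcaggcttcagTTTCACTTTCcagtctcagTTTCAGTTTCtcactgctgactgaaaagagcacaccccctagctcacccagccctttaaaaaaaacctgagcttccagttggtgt
Ifit3: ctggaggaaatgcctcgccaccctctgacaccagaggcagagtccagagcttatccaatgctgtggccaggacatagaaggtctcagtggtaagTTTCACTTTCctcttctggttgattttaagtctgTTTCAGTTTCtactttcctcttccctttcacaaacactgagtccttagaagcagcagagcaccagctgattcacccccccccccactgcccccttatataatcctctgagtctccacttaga
Ifit3b: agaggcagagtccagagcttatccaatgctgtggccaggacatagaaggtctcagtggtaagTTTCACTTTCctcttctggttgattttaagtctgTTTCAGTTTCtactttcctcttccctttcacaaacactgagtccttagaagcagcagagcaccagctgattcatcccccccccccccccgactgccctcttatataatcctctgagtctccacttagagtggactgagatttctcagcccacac

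Of 20 tested genes of stellate cells and fibroblasts 7 were higher and none lower, with a median of 0.41; 1 of the 7 was Thy1, which the T cell list also holds. The collagen Col3a1 had 38.5, 102, 40 and 12.5 CPM in T cell spots, against 31.4, 60.7, 16.4 and 11.4 CPM in other spots, and was 1.53-fold higher (log2 difference 0.61 ± 0.08 SE, edgeR adjusted p = 1.00e-11). The collagens Col1a1 (0.67) and Col1a2 (0.55) also passed. Gsn, the actin-severing gelsolin, had 50.8, 121, 125 and 60.0 CPM in T cell spots, against 32.2, 78.5, 45.3 and 31.4 CPM in other spots, and was 1.65-fold higher (log2 difference 0.72 ± 0.07 SE, edgeR adjusted p = 4.49e-21). Without MASH 2, 2 of these genes passed. None of 14 tested endothelial genes passed in edgeR or DESeq2, and none had an unadjusted p under 0.05 (median -0.05). None of 10 tested bile duct genes passed in either (median 0.22), and 3 were higher at an unadjusted p under 0.05, but 2 passed in edgeR within MASH alone.

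Hepatocyte genes of the pericentral zone, around the vein that drains the lobule, were lower in T cell spots. Of 18 tested pericentral genes 15 were lower and none higher, with a median of -0.54, against 1.18% lower among all genes tested. Cyp2e1, a cytochrome P450 that oxidises ethanol, had 5259.7, 3413, 2921 and 3727 CPM in T cell spots, against 7008, 5476, 3751 and 5939 CPM in other spots. It was 1.45-fold lower (log2 difference -0.53 ± 0.05 SE, edgeR adjusted p = 1.24e-28), lower in 4 of 4 sections. Cyp2a5, the coumarin hydroxylase, had 492, 214, 28.2 and 178 CPM in T cell spots, against 757, 337, 73.2 and 470.3 CPM in other spots, and was 1.77-fold lower (log2 difference -0.82 ± 0.07 SE, edgeR adjusted p = 4.99e-28). Glutamine synthetase Glul had 218, 218, 155 and 105 CPM in T cell spots, against 313, 309, 169.7 and 267 CPM in other spots, and was 1.48-fold lower (log2 difference -0.56 ± 0.07 SE, edgeR adjusted p = 3.17e-13). Outside the list, Rhbg, an ammonia transporter of the same cells, had 5.78, 5.14, 4.71 and 2.50 CPM in T cell spots, against 11.8, 7.57, 5.69 and 12.3 CPM in other spots, and was 1.79-fold lower (log2 difference -0.84 ± 0.22 SE, edgeR adjusted p = 0.00636). The bile acid enzyme Cyp7a1 (-0.46) also passed.

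These differences shrank when other spots were drawn to match the T cell spots. With 10 bins of total UMIs in each section, 5 of 17 pericentral genes were lower, with a median of -0.19. With 10 bins of the lobule position score, 1 of 17 was lower, with a median of -0.12. Cyp2e1 differed by -0.32 under depth matching and by -0.12 under position matching, and Cyp2a5 by -0.36 and -0.16 without a call (edgeR adjusted p = 0.77 and 0.16). The score was made from genes of these lists, among them Cyp2e1 and Glul, so position matching brings such genes closer by construction. Ccl5 differed by 1.56 and 1.5 and Gzma by 2.06 and 2.17 under the same matchings, both with their calls. The T cell list had 9 of 12 and 8 of 11 higher, against 134 of 11439 and 117 of 11322 among all genes tested. Against all other spots 16 genes of this list were tested. Its rare genes could enter through the T cell spots, so these counts are a description.

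**Figure D4:**
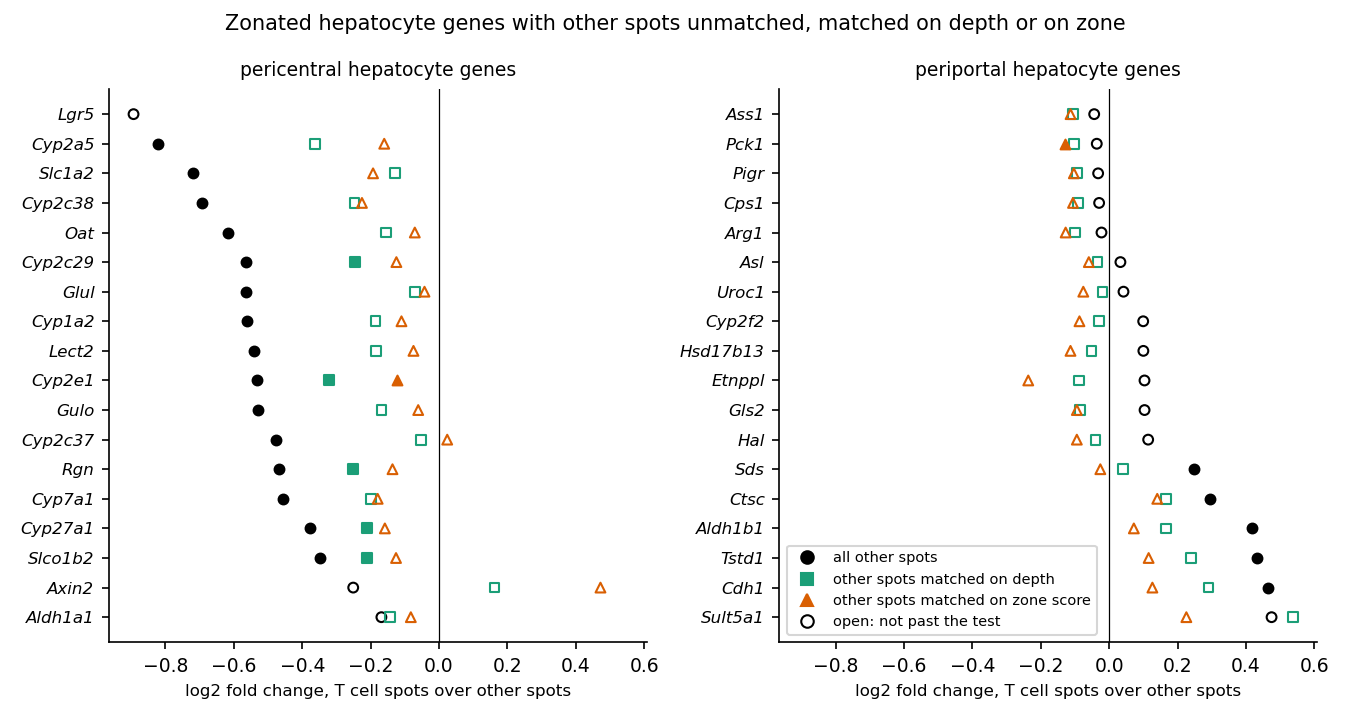
Log2 difference of T cell spots over other spots for 18 pericentral and 18 periportal hepatocyte genes, with all other spots, with other spots matched in total UMIs and with other spots matched in lobule position; filled points have an adjusted p under 0.05. Of the 17 pericentral genes that could be tested against matched spots, all 17 lie closer to 0 under depth matching and 16 under position matching, where Axin2 differs by 0.47, against -0.25 with all other spots.

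Of 18 tested periportal genes, those of hepatocytes where blood enters, 5 were higher and none lower, with a median of 0.10: Sds, Ctsc, Aldh1b1, Tstd1 and Cdh1, the last named after its values were seen. Aldh1b1, a mitochondrial aldehyde dehydrogenase, had 126, 123, 51.8 and 143 CPM in T cell spots, against 92.7, 93.2, 45.2 and 103 CPM in other spots, and was 1.33-fold higher (log2 difference 0.42 ± 0.07 SE, edgeR adjusted p = 1.65e-07). Under depth matching none of the 18 passed in edgeR, with 4 higher and 5 lower at an unadjusted p under 0.05, and under position matching 1 was lower (Pck1); Aldh1b1 then differed by 0.17 and 0.07. Without MASH 1, 2 of the 18 were higher, and without MASH 2 also 2.

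The lobule position itself was read from a score of 6 periportal over 6 pericentral genes, and the top 1 of 3 equal parts of each section was called periportal. T cell spots lay in that part in 50.4, 52.1, 24.0 and 52.9% of cases, against 31.0, 29.4, 33.6 and 32.9% of other spots. The difference was 19.4 and 22.7 percentage points in MASH and -9.61 and 20.0 in MAFL, so 3 of 4 sections ran the same way. The median score was higher in T cell spots in 4 of 4, at -0.55, 0.281, 0.656 and 0.621, against -1.8, -1.15, 0.504 and -0.766 in other spots. The difference in periportal share averaged 13.1 ± 15.2 points (SD, n = 4 sections). It did not pass an exact two-sided sign-flip permutation test (p = 0.25, the smallest possible being 0.125). With the upper 1 of 2 equal parts of the score in its place the mean was 15.2 points, higher in 4 of 4 sections (exact p = 0.125). Against depth-matched other spots the mean difference was 3.36 points (exact p = 0.625). With classes made after thinning to 5000 UMIs, which left 17 T cell spots, it was -24.9 points (exact p = 0.125).

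Among other hepatocyte lists, 1 of 14 genes of secreted proteins was lower, the apolipoprotein Apoa2 (-0.16), with a median of -0.07. Of 12 acute phase genes, which the liver makes in inflammation, 6 were higher and none lower, with a median of 0.24, while 4 were higher without MASH 1 and 2 without MASH 2. The interleukin 1 receptor antagonist Il1rn was 1.95-fold higher (log2 difference 0.96 ± 0.18 SE, edgeR adjusted p = 7.24e-06), and Saa3 (0.57), lipocalin Lcn2 (0.47) and Saa2 (0.32) passed. Of 16 lipid droplet genes 4 were lower and none higher, with a median of -0.18: Fitm1 (-0.55), Cidea (-0.54), Cidec (-0.48) and G0s2 (-0.22). Without MASH 1, 2 of these 16 were lower. Of 14 lipogenesis genes the desaturase Scd1 was lower (-0.18), with a median of -0.10. Without MAFL 2 neither Apoa2 nor Scd1 passed. The lipogenic regulator Thrsp had 331, 435, 28.2 and 135 CPM in T cell spots, against 358, 498, 31.2 and 132 CPM in other spots, and did not pass.

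The comparison of T cell spots with other spots was then compared between the models. The difference itself differed between MASH and MAFL for 42 of 12224 genes (0.344%), 25 with a higher (0.205%) and 17 with a lower (0.139%) log2 difference in MASH, by edgeR's quasi-likelihood test of the interaction. With edgeR's RLE size factors 4 were higher and 21 lower, and with library totals alone 4 and 23. The median of all tested genes was 0.11. Values in this comparison are CPM on library totals. Cd74 had 278, 592, 169.6 and 213 CPM in T cell spots, against 233, 379.7, 75.9 and 78.2 CPM in other spots. Its difference was lower in MASH than in MAFL by 0.75 on the log2 scale (edgeR adjusted p = 6.55e-05). H2-Aa had 114, 264, 89.7 and 81.0 CPM in T cell spots, against 94.1, 176, 35.6 and 31.5 CPM in other spots (interaction -0.79, edgeR adjusted p = 0.0337). For both genes T cell spots were higher in all 4 sections, by less in MASH.

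Haemoglobin moved with this comparison. Haemoglobin transcripts, which come from red blood cells, took 0.406, 0.155, 2.64 and 1.63% of the UMIs of T cell spots, against 0.420, 0.143, 0.203 and 0.130% in other spots. Spots with over 1% haemoglobin numbered 16, 10, 7 and 3 among the T cell spots (12.4, 7.04, 28.0 and 17.6%), against 10.4, 4.88, 3.46 and 1.68% of other spots. Leaving these spots out of both classes, an alternative added after the data were seen, Cd74 had 275, 584, 141 and 113 CPM in T cell spots, against 230.1, 376, 73.1 and 76.5 CPM in other spots. The interaction was then -0.18 (edgeR adjusted p = 0.91), and that of H2-Aa was -0.15 (edgeR adjusted p = 0.949). None of the 17 genes named in this comparison passed in edgeR without these spots, 6 being higher and 3 lower at an unadjusted p under 0.05. Among the 17 are the haemoglobin genes themselves, whose loss the filter fixes. In all, 10 genes passed.

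**Figure D5:**
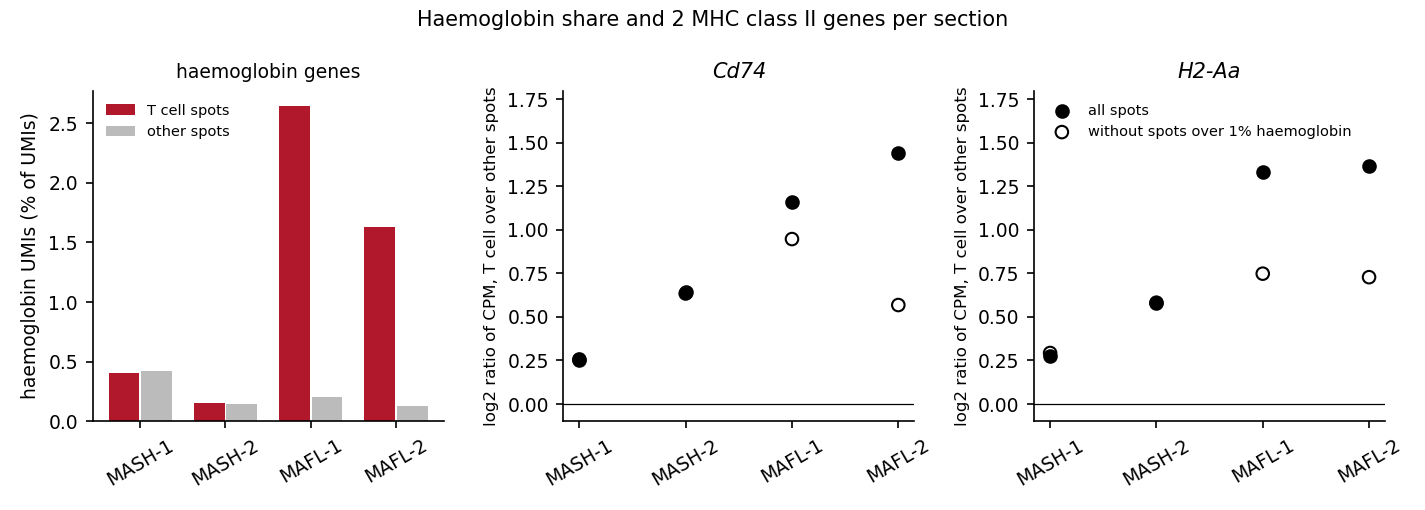
Share of UMIs from haemoglobin genes (%) in T cell spots and other spots of each section, and the log2 ratio of T cell over other spots for Cd74 and H2-Aa in each section with all spots and without spots over 1% haemoglobin. The T cell spots of both MAFL sections stand above the rest in haemoglobin, and the MAFL ratios of both genes are smaller without the haemoglobin-rich spots.

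Ly6c2 had 5.99, 12.6, 9.69 and 32.9 CPM in T cell spots, against 2.14, 6.46, 1.88 and 2.25 CPM in other spots, and its difference was lower in MASH by 2.12 on the log2 scale (edgeR adjusted p = 0.0384). Without the haemoglobin-rich spots the interaction was -2.14 (edgeR adjusted p = 0.156). Cyp2a5 had 488, 226, 29.1 and 179.8 CPM, against 740.4, 351, 70.0 and 439 CPM in other spots, so that it was lower in T cell spots in every section, by less in MASH (interaction 0.76, edgeR adjusted p = 0.000529). Without those spots its interaction was 0.57 (edgeR adjusted p = 0.154). The MAFL side of these comparisons rested on 25 and 17 T cell spots.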

How the data were processed

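Visium libraries of 4 liver sections were made, 2 of MASH and 2 of MAFL. The counts are UMIs per gene and spot, deposited by the authors as unnormalized matrices from Space Ranger 1.2.2, per the file headers, with mm10 named in the submitters' processing notes. Counting settings beyond this are not given in the sources used here. Each file held 31253 features, of which 91 share a symbol with another.

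Here spots with 5000 UMIs or more were classed by the 6-gene sum, and counts were summed per class and section into 8 libraries. Testing used edgeR 4.0.16 in R 4.3.3, with TMM scaling, its default expression filter by class and the robust form of the quasi-likelihood fit, the section as a block, Benjamini-Hochberg adjustment and a threshold of 0.05. limma 3.58.1 was loaded by edgeR, and DESeq2 1.42.0 was an alternative, beside other scalings, filters, thresholds, matched spots and left-out sections. Thinning used seed 20240517. Python 3.11.15 was used for the rest. Features sharing a symbol were kept as separate rows, no spot was tested for mixtures, and 1182 to 1725 barcodes recur between sections, as they name positions on the slide.

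The members and the 27 gene lists (404 symbols, 401 found) were chosen with earlier results of these data known. Named genes were the 10 highest and 10 lowest past the threshold with at least 5 CPM and 1 direction in 4 sections, the members of smallest p in each list (up to 8 in the T cell, cytotoxic, state and chemokine lists, 4 in others), the 5 highest and 5 lowest of the comparison between models, and the genes of the title; some genes that these rules take are not reported here. On simulated data with 12024 genes, the class test found 78 of 100 at a 2-fold change and 93 of 100 at a 4-fold change, with 2.84% false calls. The test between models recovered 34 and 41 of 100 among 12069 genes, with 5.06% false calls. For each test 1 set of counts was drawn from the means and trended dispersions of the fitted model. No spots were chosen by a rule in that draw. These rates therefore hold for that setting and do not measure false calls in the real data. Promoters are those of RefSeq for GRCm38.p6; H2-Ab1, Ccl5, Trac and Trbc2 were looked for too.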

Additional observations from a re-analysis of the deposited data

Results flagged for a closer look

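For 17 of the genes named here the difference between T cell spots and other spots itself differed between MASH and MAFL in edgeR's quasi-likelihood test of the interaction. Values are log2 differences in MASH minus those in MAFL, and the CPM are on library totals. Among these 17 the haemoglobin genes stood lowest, Hba-a1 at -3.71, Hbb-bs at -3.59, Hbb-bt at -3.57 and Hba-a2 at -3.32. Hba-a1 had 983, 407, 7074 and 3861 CPM in T cell spots, against 1018, 394, 483 and 297 CPM in other spots, so that both MAFL sections were high. Isg20 (-3.03) and Tent5c (-1.8) had the same pattern. Isg20 had 7.99, 4.12, 36.4 and 22.8 CPM in T cell spots, against 6.49, 4.75, 3.91 and 2.45 CPM in other spots. Without spots over 1% haemoglobin none of the 17 kept its call. The haemoglobin genes set which spots this filter removes, so the loss of their calls was fixed by the filter.

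Among immune genes, Ly6c2 stood at -2.12, Selplg, the ligand of selectins on leukocytes, at -2.10, Ccl19 at -1.35, H2-Aa at -0.79 and Cd74 at -0.75. Selplg had 4.99, 13.0, 17.0 and 17.7 CPM in T cell spots, against 6.01, 8.77, 3.0 and 3.28 CPM in other spots. For Ccl19 the 2 MAFL sections disagreed, with 67.9 CPM in the T cell spots of MAFL 1 and 2.53 CPM in those of MAFL 2.

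Genes with a positive value were Cyp2a5 at 0.76, Calu at 0.87, Sdr42e1 at 1.18, Ccdc152 at 1.45 and the antiprotease Serpina1c at 0.21. Calu, a calcium-binding protein of the secretory pathway, had 60.1, 70.5, 46.0 and 43.0 CPM in T cell spots, against 53.9, 66.0, 74.7 and 65.4 CPM in other spots, lower in both MAFL sections and slightly higher in both of MASH. Efcab14 had 46 and 61 UMIs in the T cell spots of MASH and 0 in both MAFL libraries, so its fitted value of 10.69 has no set size. The T cell spots of MAFL number 42 in all, and the cause of these differences was not tested.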

How the results depend on the processing

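Of the tests between T cell spots and other spots, 314 genes passed in the reported fit. DESeq2 gave 102 and other spots matched in lobule position 198. The fit without a section block gave 1, and the replicate block in its place also gave 1, which was Ccl5 in both; the replicate numbers only name the sections (r = -0.0065 over 12224 genes), so they pair nothing. Classes made after thinning to 5000 UMIs gave 0 by edgeR, with 893 at an unadjusted p under 0.05. Leaving out 1 section gave 131 to 379, with 173 without MASH 1 and 131 without MASH 2. Of the 81 named genes that passed, 79 kept their call with RLE size factors, 76 without haemoglobin-rich spots, 57 with depth matching, 51 with position matching, 54 without MASH 1 and 47 without MASH 2. DESeq2 kept 13 of them, the fit without a section block 1, the replicate block 1 and thinned classes 0. DESeq2 called none of the pan-leukocyte, chemokine, interferon or stellate cell genes, with 8, 4, 5 and 6 higher at an unadjusted p under 0.05, and 1 each of the monocyte, lipid-associated macrophage and acute phase genes. Where calls were lost the cause was not tested.

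Between MASH and MAFL, 42 genes passed. The counts were 9 with DESeq2, 25 with RLE size factors, 27 with library totals, 23 at a mean of at least 5 CPM, 16 with no filter, 13 with position matching, 24 with depth matching and 27 with the replicate block. They were 10 without haemoglobin-rich spots, 25 against spots with a sum of 0 or 1, 87 for a sum of 3 or more, 17 without Nkg7 and 17 to 22 with 1 section left out. Thinned classes gave 0 by edgeR, with 305 at an unadjusted p under 0.05.

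Held out after thinning, Cd3d (2.54), Cd3e (2.05), Cd3g (2.99) and Trac (2.89) kept their direction without a call. Nkg7 (3.76) kept its call, and all of these rest on few spots. With 1 section left out, Cd3d ranged over 1.72 to 2.07, Cd3e 1.09 to 1.58, Cd3g 1.58 to 2.06, Trac 1.35 to 2.07, Trbc2 1.42 to 2.14 and Nkg7 1.46 to 2.13. Cd3e could not be tested in depth-matched spots, nor Trbc2 after thinning. The difference in share, 0.166 points after thinning to 5000 UMIs, was 5.43 without thinning, 1.08 at 10000 UMIs, 0.343 with another random seed, 2.62 for a sum of 1 or more and 0.0228 without Nkg7, and 0.0794 to 0.252 with 1 section left out. Without Nkg7, 2 thinned spots in MASH 1 (0.0825%) and 4 in MASH 2 (0.217%) met the rule. In MAFL 1 there were 4 (0.200%) and in MAFL 2 there was 1 (0.0538%), so MASH 1 stood below MAFL 1. The periportal difference of 13.1 points was -24.9 in thinned classes and 9.93 to 20.7 with 1 section left out.

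In thinned classes, which left 17 T cell spots, the log2 difference turned negative for Aldh1b1 -1.02, C1qb -0.47, Ccl9 -0.61, Cd44 -0.95, Cd63 -0.61, Cmpk2 -0.21, Col1a1 -0.0099, Col3a1 -0.22, Ctsc -0.081, Ctsw -7.29, H2-Q6 -0.18, Ifit1 -0.66, Ifit3 -2.41, Ighg2c -0.42, Il1rn -0.17, Il2rb -8.26, Isg15 -1.42, Lgals3 -0.29, Lyz2 -0.20, Mmp12 -0.14, Psmb8 -0.092, Saa2 -0.24, Saa3 -0.32, Sds -1.2 and Tstd1 -0.61, and positive for Cyp2c38 0.057, Glul 0.0020, Nxpe2 0.42 and Rhbg 0.53. Ctsw and Il2rb had no UMI in those T cell spots, so their fitted values have no set size, and the same holds below for Ly6c2 and Selplg, which had none in the T cell spots of MAFL. Elsewhere, turned differences were -0.046 for Ifit3 without MASH 1, 0.29 for Ighg2b with depth matching and 0.28 for a sum of 3 or more, -0.65 for Ighg2c without MASH 2 (0.81 without MASH 1), and -0.026 for Sds with position matching. Between the models, Ccdc152 (-1.08), Ly6c2 (8.99) and Selplg (10.38) turned in thinned classes, Ccl19 without MAFL 1 (1.51, against -1.76 without MAFL 2), and without haemoglobin-rich spots Hba-a1 (0.13), Hba-a2 (0.10), Hbb-bt (0.018) and Tent5c (0.95). Leaving out haemoglobin-rich spots and fitting MASH alone were chosen after seeing the data. The depth of the MAFL T cell spots, where 3 UMIs are 7.27 and 7.60 CPM, limits every value of a rare gene there.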

Other observations

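B cell and plasma cell genes gave few calls. None of 5 tested B cell genes passed in edgeR or DESeq2, with 1 lower at an unadjusted p under 0.05 and a median of -0.04, though in edgeR 1 was lower within MASH alone, without MAFL 2 and under either matching. Summed, the B cell list reached 9.81, 21.8, 4.71 and 20.0 CPM in T cell spots, against 12.2, 26.1, 6.01 and 11.5 CPM in other spots. Of 8 tested plasma cell genes 1 was higher and 2 lower, with a median of -0.39. The light chain Igkc had 10.8, 101, 16.5 and 17.5 CPM in T cell spots, against 29.5, 146, 11.1 and 15.9 CPM in other spots, and was 1.57-fold lower (log2 difference -0.65 ± 0.08 SE, edgeR adjusted p = 2.70e-12), though higher in both MAFL sections. The heavy chain Ighg2b was lower (-0.71) and Ighg2c higher (0.55), Ighg2c in MASH 2 alone. Immunoglobulin genes share near-identical stretches, so the counting could split reads between them.

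Neutrophil transcripts were highest in 1 library. The calcium-binding protein S100a8 had 3.27, 17.5, 7.06 and 205 CPM in T cell spots, against 2.99, 5.23, 3.46 and 6.31 CPM in other spots, and the partner S100a9 stood at 208 CPM in the T cell spots of MAFL 2. None of 4 tested neutrophil genes passed in edgeR or DESeq2, with 2 higher at an unadjusted p under 0.05 and a median of 2.0. The count depended on the fit: 2 of 4 passed in edgeR within MASH alone, without haemoglobin-rich spots and without MAFL 2, and 3 of 4 without Nkg7 in the rule. None of 14 proliferation genes passed in either tool, with 1 higher at an unadjusted p under 0.05 and a median of 0.16, though 1 of 12 passed in edgeR under either matching. None of 5 erythroid genes passed in either, with none at an unadjusted p under 0.05 and a median of 1.72. Their sum was 4152, 1519.5, 25815 and 16193 CPM in T cell spots, against 4354, 1420.4, 2179 and 1459 CPM in other spots, with both MAFL libraries of T cell spots high.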
